A study of Mus musculus with 110 samples.

Results

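The genes described here are 38 enzymes and carriers of fatty acid oxidation and ketone body metabolism, together with the acyl-CoA synthetases, acyl-CoA thioesterases and a few lipid-handling genes that are commonly listed with them. They were taken by name, and all 38 were found among the 56884 gene rows of the count tables and were tested in each of the 4 tissues. RNA sequencing of liver, interscapular brown adipose tissue (iBAT), inguinal white adipose tissue (iWAT) and epididymal white adipose tissue (eWAT) came from 28 wild-type male C57BL/6N mice, of which 26 gave a library of every tissue. The diets of all mice lacked cysteine (0%). Ctrl_RT mice ate 0.86% methionine and MetR_RT mice 0.12% methionine for 7 days at 22 °C, while Ctrl_CE and MetR_CE mice ate the same diets and then spent an additional 24 h at 4 °C (cold exposure, CE). The age was 16 weeks, and the mice were housed singly. Methionine restriction (MetR), cold or both were set against Ctrl_RT, and the diet x temperature interaction asked whether the response to both differed, on the log2 scale, from the sum of the responses to each.

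Fatty acids are first joined to coenzyme A by acyl-CoA synthetases. Long-chain acyl-CoA enters mitochondria through the carnitine shuttle and is shortened there in repeated rounds of dehydrogenation, hydration, a second dehydrogenation and thiolytic cleavage, with electrons passed on through the electron transfer flavoprotein. Very-long-chain and branched substrates are shortened in peroxisomes, acyl-CoA thioesterases return acyl-CoA to free fatty acid and coenzyme A, and the liver turns acetyl-CoA into ketone bodies that other tissues oxidise. Many of these genes are textbook targets of the nuclear receptor PPAR alpha. Brown adipocytes are known for a high capacity for fatty acid oxidation, which fuels heat production in the cold.

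Of 110 libraries, 105 were analysed, with 7 per group in liver, 6 or 7 in iBAT and iWAT, and 4 (Ctrl_RT), 6 (MetR_RT) or 7 in eWAT. The libraries held between 6987895 and 33444374 counts each. Hepatocyte markers summed to at least 73218 CPM (counts scaled to library size within a tissue) in every liver library, adipocyte markers to at least 10114 CPM in every fat library and brown adipocyte markers to at least 8993 CPM in every iBAT library. Titles and a second treatment tag named different groups for 3 iBAT libraries, which were placed by title. Skeletal muscle markers reached 24949 CPM in MetR_RT replicate 6 of iWAT, between 5964 and 6633 CPM in 3 other iWAT libraries and between 1211 and 2190 CPM in 4 iBAT libraries, and these are the libraries referred to as high in skeletal muscle markers. In 5 further iWAT libraries, which were kept throughout, they stood between 1509 and 2703 CPM. Epididymal epithelium markers reached 1268 CPM in MetR_RT replicate 2 of eWAT. The group medians of both lists were at most 1290 and 2.21 CPM. All results are from bulk tissue, in which fewer cells of a type and less RNA per cell cannot be told apart.

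In Ctrl_RT mice the tissues differed in which of these genes led once levels were divided by exon length. That length takes in every annotated exon of a gene, 10483 bases for Acsl1 and 2005 for Acadl, and the order depends on it. Before division Acsl1 was the highest member in iWAT (1988 CPM) and eWAT (1619 CPM). Liver was led by Fabp1, the fatty acid binding protein of hepatocytes, at a median of 3242 CPM per kb, followed by the thiolases Acaa2 (584 CPM per kb) and Acaa1b (406 CPM per kb). iBAT was led by the acyl-CoA dehydrogenase Acadl at 1100 CPM per kb, with Acaa2 at 884 CPM per kb and Acadm at 559 CPM per kb. The leading gene of iWAT was Acadl (213 CPM per kb), and that of eWAT was Etfa (202 CPM per kb), a subunit of the electron transfer flavoprotein, and in both depots the synthetase Acsl1 came second at 190 and 154 CPM per kb. The lowest gene of liver was Acot3 (0.0227 CPM per kb), and Fabp1, Bdh1, Acot3 and Acot12 were the 4 lowest members in each fat depot.

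Genes were called changed at an adjusted p under 0.05 (edgeR's quasi-likelihood test, Benjamini-Hochberg over all genes of the tissue) together with a change of at least 1.5-fold. The members rose most often in iWAT. There, 22 of 38 (57.9%) were called in Ctrl_CE, 21 up and 1 down, against 15.9% of all genes tested (5.99% up). MetR_RT gave 22 calls, all up, against a background of 11.6% (4.25% up), and MetR_CE gave 25 of 38 (65.8%), all up, against 22.4% (8.05% up). The median log2 fold change of the 38 was 0.67, 0.73 and 0.97 in these comparisons, beside -0.11, -0.03 and -0.08 for all genes of iWAT. In liver, 8 of 38 (21.1%) rose in Ctrl_CE (background 11.9%, 7.28% up) and 10 (26.3%) rose in MetR_CE (background 13.5%, 6.25% up). The 3 liver genes that rose in MetR_RT were 7.89% of the members, against a background of 6.91% (2.88% up). These backgrounds take in genes of low counts. Among genes with a mean of at least 1 CPM, more were called in Ctrl_CE, MetR_RT and MetR_CE. The shares were 20.4%, 15.9% and 27.8% in iWAT and 14.8%, 8.79% and 16.5% in liver. The 7.89% of members called in liver in MetR_RT lay below that 8.79%. Markers of other liver cells moved with these counts. Of 7 markers of endothelial, stellate and Kupffer cells, 6 were called up in Ctrl_CE, 5 in MetR_CE and 1 in MetR_RT, where 1 was also down. They summed to 226 to 381 CPM in Ctrl_RT, 367 to 612 in Ctrl_CE, 251.4 to 374 in MetR_RT and 350.0 to 436 in MetR_CE. Of 10 hepatocyte markers 1 was up and 2 were down in both cold groups, and of 6 macrophage markers 3 were up in Ctrl_CE, 2 were down in MetR_RT, and 1 was up and 2 were down in MetR_CE. Their part in the liver calls was not tested.

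In iBAT the calls went both ways. Ctrl_CE gave 8 up and 5 down (34.2%, background 14.7%) and MetR_CE 8 up and 4 down (31.6%, background 14.7%), whereas MetR_RT gave 1 gene down (2.63%, background 2.5%). The median log2 fold change of the members in iBAT lay between 0.01 and 0.05 in the 3 comparisons. eWAT had few calls of any kind: 1 up and 2 down in Ctrl_CE (7.89%, background 2.42%), 1 down in MetR_RT (2.63%, background 0.115%), and 1 up and 3 down in MetR_CE (10.5%, background 1.3%). In eWAT the median log2 fold change of the members was 0.03, -0.10 and -0.20, beside -0.01, -0.02 and -0.03 for all genes. With all deposited eWAT libraries the medians of all genes were -0.21, -0.13 and -0.18, and without Ctrl_RT replicate 6 they were above 0, at 0.02, 0.03 and 0.03. The interaction was called for 2 members in liver (both below 0, background 1.06%), 1 in iBAT (below 0, background 0.372%), 2 in iWAT (1 each way, background 1.65%) and 2 in eWAT (1 each way, background 2.3%). The eWAT results rest on 4 Ctrl_RT libraries, since 3 others were left out as the study did, and with all libraries the background in eWAT was 8.24% in Ctrl_CE and 10.4% in MetR_CE, with 4 and 5 members called. All the comparisons of a tissue share its Ctrl_RT libraries.

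**Figure D1:**
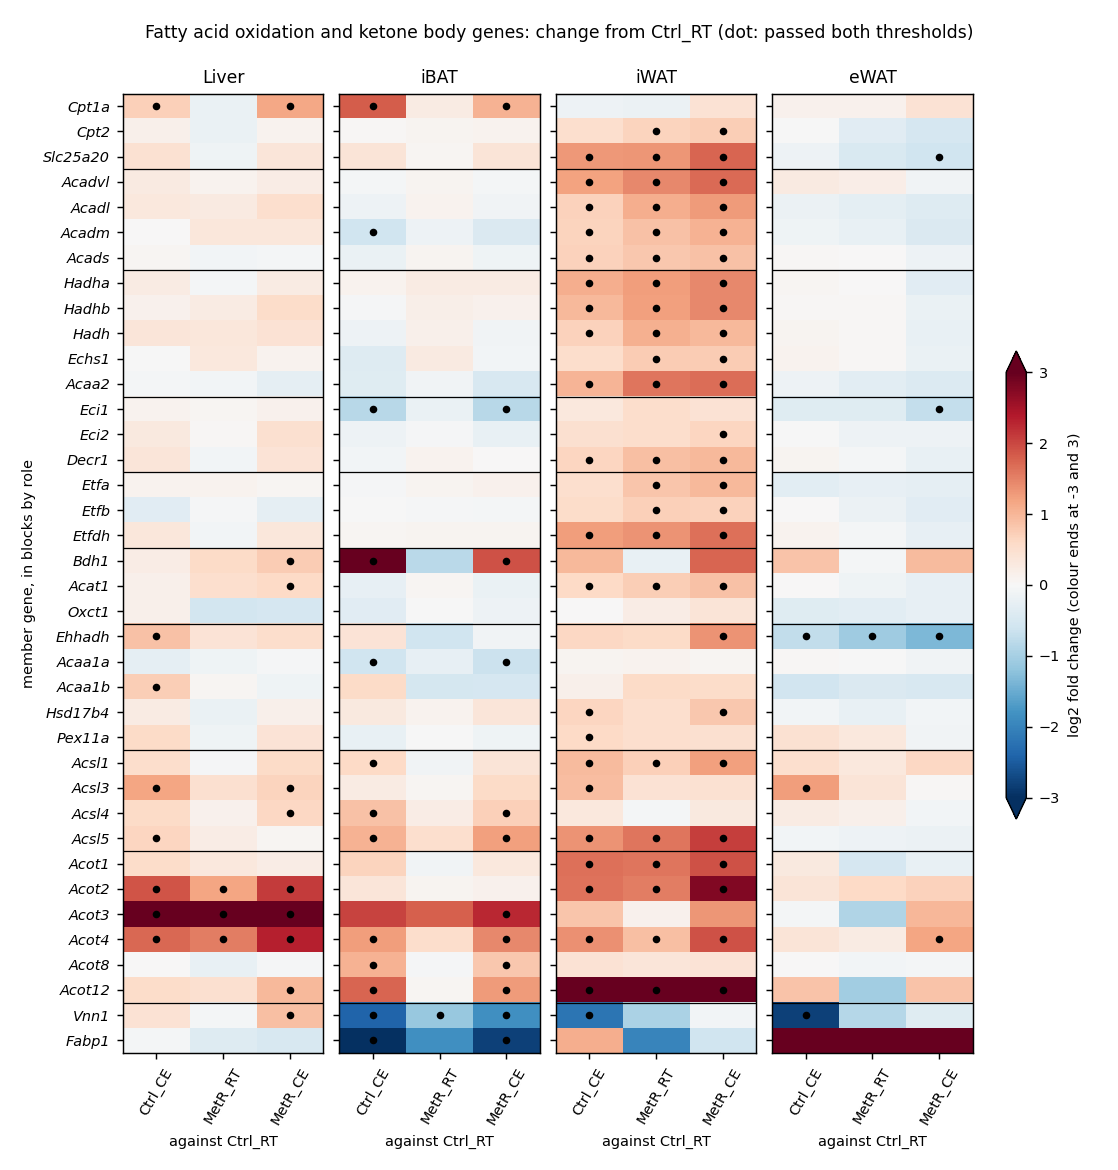
Log2 fold change of the 38 genes (rows, grouped by role) against Ctrl_RT in each tissue and comparison (columns), with a dot where a gene was called. The iWAT columns are raised over most mitochondrial rows, whereas the liver columns stand out in the thioesterase rows.

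In Ctrl_CE 22 members were called in 1 tissue, 6 in 2 and 4 in 3, and in MetR_RT 23 were called in 1 tissue and 2 in 2. Of all genes, 11.9%, 14.7%, 15.9% and 2.42% were called in liver, iBAT, iWAT and eWAT in Ctrl_CE. In MetR_RT these shares were 6.91%, 2.5%, 11.6% and 0.115%. The share of all genes called in several tissues was not counted, so the counts by number of tissues have no background. Acot4, a peroxisomal thioesterase with a preference for dicarboxylic acyl-CoA, was called up in 9 of the 12 comparisons against Ctrl_RT, more often than any other member, and was the one member called in all 4 tissues in MetR_CE. Acsl5, Acot2 and Acot12 were each called up in 6 of the 12. Oxct1, which starts ketone body use outside the liver, was the only member called in 0 of 12.

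Cpt1a, the outer-membrane carnitine palmitoyltransferase that sets the pace of fatty acid entry into mitochondria, rose in liver in both cold groups. It ran from 239 to 395 CPM with a median of 353 CPM in Ctrl_RT livers, from 496 to 624 (median 516) in Ctrl_CE, from 169 to 373 (median 327) in MetR_RT and from 637 to 872 (median 740) in MetR_CE. Every library of both cold groups lay above every Ctrl_RT library, while MetR_RT overlapped it. The log2 fold changes were 0.71 ± 0.13 (SE; adjusted p = 0.000109) in Ctrl_CE and 1.16 ± 0.13 (adjusted p = 5.05e-08) in MetR_CE, against -0.20 ± 0.13 (adjusted p = 0.313) in MetR_RT. The interaction of 0.65 ± 0.18 was not called (adjusted p = 0.0585).

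In iBAT, where its level was low, Cpt1a also rose in the cold, and its level in MetR_CE stayed below that in Ctrl_CE. It ran from 14.7 to 18.6 CPM (median 17.3) in Ctrl_RT, from 50.8 to 84.2 (median 51.8) in Ctrl_CE, from 16.6 to 24.9 (median 17.997) in MetR_RT and from 29.9 to 40.1 (median 35.6) in MetR_CE. None of the 4 groups overlapped another except Ctrl_RT and MetR_RT. The log2 fold change was 1.80 ± 0.12 in Ctrl_CE (adjusted p = 1.86e-12) and 1.05 ± 0.11 in MetR_CE (adjusted p = 2.28e-08), and the interaction of -1.01 ± 0.16 was called (adjusted p = 0.00206). With the 3 libraries of differing tag grouped by their treatment tag the interaction was -1.08 and was not called (adjusted p = 0.206). In iWAT (medians of 66.7, 62.1, 59.5 and 84.99 CPM in Ctrl_RT, Ctrl_CE, MetR_RT and MetR_CE) and in eWAT (medians of 102, 104, 115 and 128 CPM) Cpt1a was not called in any comparison.

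The upstream sequence of Cpt1a is printed because the gene moved with cold in both liver and iBAT. The 250 bases before its start site (RefSeq, GRCm38.p6, chr19:3323051-3323300, plus strand) hold 1 copy of AGGTCA, the hexamer that nuclear receptors such as PPAR alpha bind in pairs, on the opposite strand and 94 bases before the start. Capitals mark it.
Cpt1a: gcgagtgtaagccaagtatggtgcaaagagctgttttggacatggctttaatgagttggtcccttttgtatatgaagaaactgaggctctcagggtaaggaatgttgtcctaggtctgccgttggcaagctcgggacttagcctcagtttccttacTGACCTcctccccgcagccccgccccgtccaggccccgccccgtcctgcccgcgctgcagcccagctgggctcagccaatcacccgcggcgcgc

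The inner partners of the shuttle behaved differently. Slc25a20, the carnitine-acylcarnitine carrier, rose in iWAT from a median of 124 CPM (93.8 to 167) in Ctrl_RT to 300 (138 to 421) in Ctrl_CE, 237 (119 to 489) in MetR_RT and 387 (338 to 558) in MetR_CE. All MetR_CE libraries lay above all Ctrl_RT libraries, and the other groups overlapped it at their low ends. The log2 fold changes were 1.29 ± 0.26, 1.33 ± 0.26 and 1.74 ± 0.27 (adjusted p = 0.000384, 0.000463 and 9.7e-06). In iBAT it rose by less than 1.5-fold in both cold groups, with log2 fold changes of 0.39 in each and no overlap with Ctrl_RT. In eWAT it fell in MetR_CE, from 139, 88.8, 85.1 and 110 CPM in the 4 Ctrl_RT libraries to between 60.3 and 80.5 CPM, by 0.61 ± 0.13 on the log2 scale (adjusted p = 0.00911). Without Ctrl_RT replicate 1 that fall was by 0.44 and was not called (adjusted p = 0.0881). Cpt2, which remakes acyl-CoA inside the matrix, was called up in iWAT in MetR_RT (0.67 ± 0.16) and MetR_CE (0.74 ± 0.16) and in no other tissue.

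The 4 acyl-CoA dehydrogenases catalyse the first oxidation of each round on chains of decreasing length (Acadvl, Acadl, Acadm and Acads). All 4 were called up in all 3 iWAT comparisons, with median log2 fold changes of 0.69, 0.98 and 1.15 in Ctrl_CE, MetR_RT and MetR_CE. Acadm, the medium-chain enzyme, had a median of 446 CPM (338 to 610) in Ctrl_RT, 686 (378 to 1000) in Ctrl_CE, 724 (412 to 1194) in MetR_RT and 897 (790 to 1125) in MetR_CE. Only MetR_CE stood clear of Ctrl_RT. Its log2 fold changes were 0.66 ± 0.21, 0.88 ± 0.21 and 1.03 ± 0.21 (adjusted p = 0.0146, 0.00238 and 0.000324). Acadvl, the inner-membrane enzyme for the longest chains, had the largest change of the 4, at 1.69 ± 0.25 in MetR_CE.

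In iBAT Acadm was lower in the cold. It ran from 1924 to 2343 CPM (median 2187) in Ctrl_RT and from 1216 to 1617 (median 1411) in Ctrl_CE, without overlap, a fall by 0.60 ± 0.06 (adjusted p = 3.16e-09), which was just past 1.5-fold and fell short of it with RLE size factors (-0.58). In MetR_CE (1500 to 1721 CPM, median 1605) the fall by 0.43 ± 0.06 was again without overlap (adjusted p = 6.78e-07) but below the 1.5-fold limit, and MetR_RT (median 1923 CPM) overlapped Ctrl_RT. In liver, Acadm medians were 256.9, 238, 305 and 313 CPM in Ctrl_RT, Ctrl_CE, MetR_RT and MetR_CE, and no change reached 1.5-fold. In eWAT they were 413, 396, 373 and 315 CPM, with a largest change of -0.44 ± 0.11 in MetR_CE (adjusted p = 0.0364), also under 1.5-fold.

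Hadha and Hadhb encode the subunits of the mitochondrial trifunctional protein, which carries out the later steps on long chains. Hadha in iWAT rose from a median of 501 CPM (344 to 781) in Ctrl_RT to 1106 (592 to 1560) in Ctrl_CE, 1268 (600 to 1821) in MetR_RT and 1407 (1138 to 2033) in MetR_CE. The lowest Ctrl_CE and MetR_RT libraries lay inside the Ctrl_RT range, and all MetR_CE libraries lay above it. The log2 fold changes were 1.08 ± 0.23, 1.26 ± 0.23 and 1.44 ± 0.24 (adjusted p = 0.000707, 0.000295 and 2.5e-05). Hadhb moved beside it, with 0.97 ± 0.24, 1.23 ± 0.24 and 1.45 ± 0.25.

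Outside iWAT Hadha changed little. In iBAT its medians were 2640, 2775, 3113 and 3040 CPM in Ctrl_RT, Ctrl_CE, MetR_RT and MetR_CE, and both MetR groups lay above Ctrl_RT without overlap at a log2 fold change of 0.24 ± 0.04 each (adjusted p = 0.000398 and 2.55e-05). In liver the medians were 402, 457, 380 and 484 CPM, and in eWAT 338, 333, 354 and 264.8 CPM. No change in these 3 tissues reached 1.5-fold. Of the other enzymes of these steps, Hadh and Acaa2 were called up in iWAT in all 3 comparisons, and Echs1 in MetR_RT and MetR_CE. In iBAT the thiolase Acaa2 fell in both cold groups without overlap, from 1219 to 1584 CPM in Ctrl_RT to 890 to 1211 in Ctrl_CE and 893 to 1030 in MetR_CE, by 0.37 and 0.48 on the log2 scale, which is less than 1.5-fold.

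The start sites of Hadha and Hadhb lie close together on opposite strands of chromosome 5, so that 228 of the 250 bases before each start (chr5:30155003-30155230) are shared. The sequence is printed because it serves both subunits, which rose side by side in iWAT. It is given on the plus strand, as the 250 bases before Hadhb (RefSeq, GRCm38.p6, chr5:30155003-30155252), and holds 0 copies of AGGTCA on either strand. Of the 50-base windows of Hadhb transcripts, 57.5% also occur in another annotated gene, mostly Gm13910, so the split of its reads is uncertain.
Hadhb: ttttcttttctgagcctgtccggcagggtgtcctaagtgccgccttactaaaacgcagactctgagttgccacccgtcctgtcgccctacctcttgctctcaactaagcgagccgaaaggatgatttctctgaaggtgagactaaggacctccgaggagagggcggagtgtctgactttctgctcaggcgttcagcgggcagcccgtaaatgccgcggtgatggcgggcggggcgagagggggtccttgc

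Eci1, Eci2 and Decr1 prepare unsaturated chains for the cycle by moving or reducing double bonds. Eci1 was the 1 mitochondrial member called down in iBAT in both cold groups. It fell from 434 to 531 CPM (median 461) in Ctrl_RT to 227 to 303 (median 264.2) in Ctrl_CE and 242.3 to 284.3 (median 268.9) in MetR_CE, without overlap, by 0.84 ± 0.06 and 0.83 ± 0.06 (adjusted p = 5.99e-12 and 3.72e-12). It also fell in eWAT in MetR_CE, from 210, 167, 154 and 180 CPM in the 4 Ctrl_RT libraries to between 96.6 and 122 CPM, by 0.72 ± 0.12 (adjusted p = 0.00187). With all deposited eWAT libraries that fall of Eci1 was by 0.41 and was not called (adjusted p = 0.0997). Eci1 was called up in 0 comparisons, and in iWAT its log2 fold changes of 0.32 to 0.54 stayed under 1.5-fold. Decr1 was called up in iWAT in all 3 comparisons (0.64, 0.91 and 0.98) and Eci2 in MetR_CE (0.64).

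Etfa, Etfb and Etfdh hand the electrons of the dehydrogenases to the respiratory chain. In iWAT Etfdh rose from a median of 127 CPM (91.5 to 187) in Ctrl_RT to 311, 261.7 and 392 CPM, with log2 fold changes of 1.26 ± 0.25, 1.36 ± 0.25 and 1.66 ± 0.26, and all 3 genes were called in MetR_RT and MetR_CE. None of the 3 was called in liver, iBAT or eWAT. In liver Etfb was lower in the cold, with medians of 86.3 CPM in Ctrl_RT, 66.4 in Ctrl_CE and 68.7 in MetR_CE, by 0.33 and 0.28 on the log2 scale (adjusted p = 0.000202 and 0.000936), less than 1.5-fold. Of the 50-base windows of Etfb, 57.7% are shared with the annotated gene Gm45233, so its level is uncertain.

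Over the 18 mitochondrial members together, from the carnitine shuttle to electron transfer, 11, 15 and 16 were called up in iWAT in Ctrl_CE, MetR_RT and MetR_CE. Of all genes of iWAT, 5.99%, 4.25% and 8.05% were called up. In liver Cpt1a was the only one called, in both cold groups (backgrounds 11.9% and 13.5%). In iBAT 1 was up and 2 were down in Ctrl_CE, a share close to the background of 14.7%. In eWAT the calls were 2 down in MetR_CE (background 1.3%). The summed level of the 18 in iWAT had a median of 4126 CPM (3187 to 5210) in Ctrl_RT, 6948 (4181 to 9416) in Ctrl_CE, 7619 (4416 to 11933) in MetR_RT and 9127 (7951 to 12319) in MetR_CE. The MetR_CE libraries all lay above the Ctrl_RT range, and 1 library each of Ctrl_CE and MetR_RT lay within it. In Ctrl_RT, Ctrl_CE, MetR_RT and MetR_CE the median sum was 17512, 16192, 18240 and 17034 CPM in iBAT, 4334, 5020, 4346 and 5230 CPM in liver, and 3728, 3574, 3553 and 3023 CPM in eWAT. The liver libraries of MetR_CE (4711 to 5924 CPM) all lay above those of Ctrl_RT (4227 to 4613 CPM), and every other group of these 3 tissues overlapped its Ctrl_RT range.

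**Figure D2:**
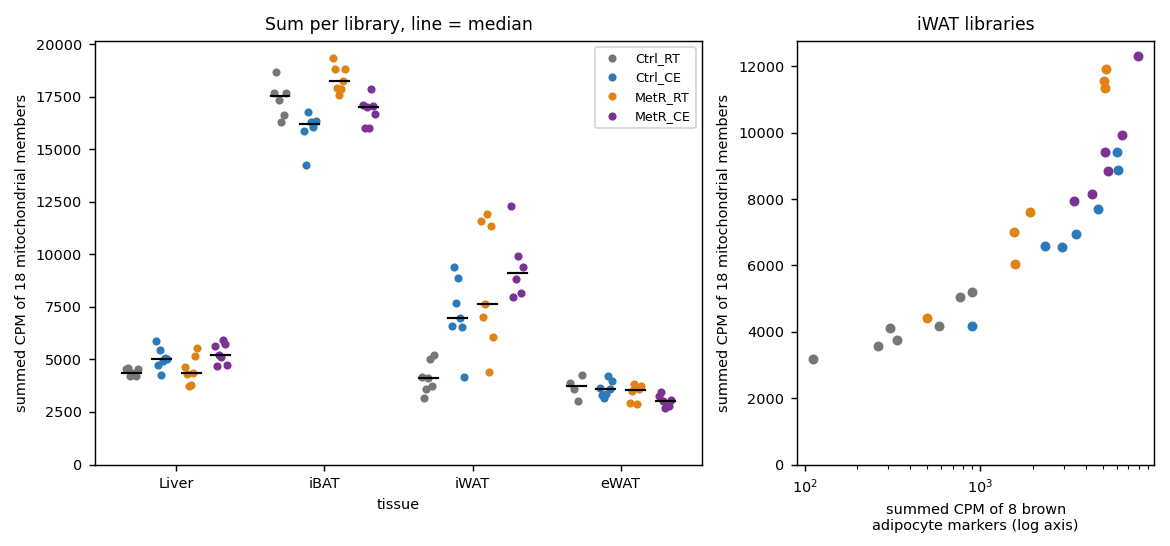
Summed CPM of the 18 mitochondrial members in each library (points) with group medians (lines), by tissue and group (left), and the same sum in iWAT libraries against the summed CPM of the 8 brown adipocyte markers on a log axis (right). The iWAT libraries spread from 3187 CPM to 12319 CPM and the iBAT libraries from 14229 to 19332 CPM, each scaled within its own tissue.

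Brown adipocyte markers moved with these genes in iWAT. The summed level of 8 markers (Ucp1, Cidea, Dio2, Elovl3, Cox8b, Cox7a1, Ppargc1a and Prdm16) had a median of 338 CPM (112 to 896) in Ctrl_RT, 3533 (899 to 6120) in Ctrl_CE, 1931 (497 to 5242) in MetR_RT and 5250 (3411 to 7958) in MetR_CE, and 7, 8 and 8 of the 8 were called up. The library with the lowest sum of mitochondrial members in MetR_RT, replicate 5 (4416 CPM), had the lowest marker sum of its group (497 CPM), and the library with the highest, replicate 4 (11933 CPM), had the highest (5242 CPM). In Ctrl_CE, replicate 7 was lowest on both measures, at 4181 and 899 CPM, while the highest sum of members was in replicate 2 (9416 CPM, with markers at 6006 CPM) and the highest marker sum in replicate 4 (6120 CPM, with members at 8890 CPM). Macrophage markers went the other way, with all 6 called down in each comparison and median sums of 1148, 491, 365 and 212 CPM in Ctrl_RT, Ctrl_CE, MetR_RT and MetR_CE. Their part in the rise of the mitochondrial members was not tested.

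Of the ketone body enzymes, 2 of 3 were called up in liver, both in MetR_CE (background 13.5%, 6.25% up). Bdh1, which interconverts acetoacetate and beta-hydroxybutyrate, had a liver median of 199 CPM (175 to 297.4) in Ctrl_RT, 253.8 (144 to 307) in Ctrl_CE, 303 (291.4 to 374) in MetR_RT and 365 (332 to 409) in MetR_CE. MetR_CE lay clear of Ctrl_RT, and MetR_RT overlapped it in the highest Ctrl_RT library. The log2 fold changes were 0.22 ± 0.12 (adjusted p = 0.176), 0.58 ± 0.12 (adjusted p = 0.000692, just under 1.5-fold) and 0.76 ± 0.12 (adjusted p = 8.6e-06, called). Acat1, the mitochondrial acetoacetyl-CoA thiolase, went the same way, with medians of 348, 386, 458 and 505 CPM. Its log2 fold changes were 0.16 ± 0.12, 0.51 ± 0.12 and 0.59 ± 0.12, of which the last was called (adjusted p = 0.000412, just past 1.5-fold).

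In iBAT Bdh1 was near 0 at 22 °C and rose in the cold. Its level was at most 0.754 CPM in Ctrl_RT and 0.368 CPM in MetR_RT, against 1.98 to 5.80 CPM (median 4.12) in Ctrl_CE and 1.03 to 2.10 CPM (median 1.48) in MetR_CE. Neither cold group overlapped Ctrl_RT, and the log2 fold changes were 3.30 ± 0.35 (adjusted p = 1.33e-08) and 1.903 ± 0.36 (adjusted p = 0.000102). In iWAT and eWAT Bdh1 stayed at or under 2.54 CPM in every library and was not called. Acat1 was called up in iWAT in all 3 comparisons (0.61, 0.75 and 0.87), of which the first was 0.58 and under 1.5-fold without the libraries high in skeletal muscle markers.

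Oxct1, the transferase that lets a tissue use acetoacetate, had medians of 4.39, 4.45, 2.998 and 3.15 CPM in liver in Ctrl_RT, Ctrl_CE, MetR_RT and MetR_CE, where it is known to be nearly absent. Its medians in the same order were 206, 164, 213 and 190 CPM in iBAT, 227, 201, 254.96 and 270.7 CPM in iWAT, and 368, 275.3, 303 and 326 CPM in eWAT. The iBAT change in Ctrl_CE was -0.34 ± 0.09 (adjusted p = 0.00303) and the iWAT change in MetR_CE was 0.40 ± 0.10 (adjusted p = 0.00289), both under 1.5-fold.

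The peroxisomal members include the bifunctional enzymes Ehhadh and Hsd17b4, the thiolases Acaa1a and Acaa1b, and Pex11a, which acts in peroxisome division. Ehhadh, a standard PPAR alpha target, moved in opposite directions in liver and eWAT. In liver its median was 236 CPM (184 to 351) in Ctrl_RT, 414 (326 to 626) in Ctrl_CE, 284.7 (168 to 540) in MetR_RT and 307 (254.8 to 650) in MetR_CE. Ranges overlapped throughout, and only the rise in Ctrl_CE was called, at 0.87 ± 0.22 (adjusted p = 0.0033).

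In eWAT Ehhadh was called down in all 3 comparisons. The 4 Ctrl_RT libraries stood at 169, 94.8, 107 and 96.0 CPM, and the other groups ran from 51.8 to 77.9 CPM in Ctrl_CE, from 40.7 to 66.8 in MetR_RT and from 35.3 to 53.4 in MetR_CE. No library of any stimulus reached the lowest Ctrl_RT library. The falls were by 0.74 ± 0.15 (adjusted p = 0.00611), 1.07 ± 0.16 (adjusted p = 0.00196) and 1.34 ± 0.15 (adjusted p = 3.46e-05). It was the only member called in eWAT in MetR_RT. The call in Ctrl_CE was lost without Ctrl_RT replicate 1 (-0.51, adjusted p = 0.0603), and with all deposited libraries the calls in Ctrl_CE (-0.44, adjusted p = 0.12) and MetR_RT (-0.88, adjusted p = 0.0909) were lost. Of 10 hepatocyte markers in the same depot, none were called up and 1, 0 and 1 were called down, with median log2 fold changes of 3.36, 1.60 and 3.45 over the list. Most of the list was near 0. In Ctrl_RT the medians were 4429 CPM for Cyp2e1, 7.88 CPM for Alb and at most 0.547 CPM for the others. The summed median of the list fell from 4458 CPM in Ctrl_RT to 1120, 843 and 665 CPM in Ctrl_CE, MetR_RT and MetR_CE. That sum was mostly Cyp2e1, with medians of 981, 816 and 545 CPM in these groups. Alb had higher medians than in Ctrl_RT, at 10.6, 19.7 and 27.5 CPM. The part of these markers in the Ehhadh calls was not tested. In iWAT Ehhadh rose in MetR_CE, from a median of 122 CPM (41.4 to 167) to 277.5 (205 to 411), by 1.34 ± 0.38 (adjusted p = 0.00588). In iBAT its libraries spread from 78.5 to 510 CPM over the groups, with no call.

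The other peroxisomal genes were each called in 1 tissue. In iBAT Acaa1a fell without overlap in both cold groups, from a median of 137 CPM (120 to 143) to 88.4 (82.98 to 97.3) and 86.9 (81.6 to 94.1), by 0.59 ± 0.05 and 0.65 ± 0.05 (adjusted p = 2.81e-10 and 3.23e-11), of which the first fell short of 1.5-fold with RLE size factors (-0.57). Acaa1b was called up in liver in Ctrl_CE at 0.74 ± 0.28 (adjusted p = 0.0437), with libraries from 401 to 1917 CPM in that group against 600 to 1118 in Ctrl_RT. The 2 thiolases share 26.7% and 35.5% of their 50-base windows, so their levels are uncertain. Hsd17b4 rose in iWAT in Ctrl_CE and MetR_CE (0.65 ± 0.10 and 0.82 ± 0.11). Pex11a was called in iWAT in Ctrl_CE, with 86.7 to 114 CPM against 59.3 to 84.7 CPM in Ctrl_RT (0.60 ± 0.10, adjusted p = 4.7e-05), a change that was 0.58 and under 1.5-fold without the iWAT libraries high in skeletal muscle markers. Its medians in MetR_RT (86.6 CPM) and MetR_CE (91.1 CPM) lay close to that in Ctrl_CE (96.8 CPM), and the interaction of -0.61 ± 0.14 was called (adjusted p = 0.0221).

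Among the acyl-CoA synthetases, which activate fatty acids for oxidation or for lipid synthesis, Acsl5 and Acsl1 rose in iBAT and iWAT, and Acsl3 rose in Ctrl_CE in liver, iWAT and eWAT. Acsl5 in iBAT had a median of 1139 CPM (933 to 1264) in Ctrl_RT, 2259 (1789 to 2694) in Ctrl_CE, 1622 (1425 to 1706) in MetR_RT and 2676 (2368 to 2801) in MetR_CE. Every library of every stimulus lay above Ctrl_RT, with log2 fold changes of 1.03 ± 0.08, 0.50 ± 0.08 and 1.23 ± 0.08 (adjusted p = 5.96e-11, 0.000198 and 2.09e-12), of which the second was under 1.5-fold. In iWAT it rose from a median of 82.3 CPM (69.5 to 124) to 172 (102 to 511), 166 (79.5 to 574) and 317 (194 to 689), by 1.35 ± 0.39, 1.60 ± 0.39 and 2.06 ± 0.41 (adjusted p = 0.00951, 0.00367 and 0.000211), with overlap in the first pair of groups. In eWAT its medians lay between 59.7 and 67.7 CPM, with no call.

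In liver Acsl5 was called up in Ctrl_CE and not in the other groups. Its median was 298 CPM (262.1 to 522) in Ctrl_RT, 496 (386 to 647) in Ctrl_CE, 414 (256.9 to 544) in MetR_RT and 337 (312 to 436) in MetR_CE, and the groups overlapped. The log2 fold change was 0.63 ± 0.15 in Ctrl_CE (adjusted p = 0.00173) and 0.06 ± 0.15 in MetR_CE (adjusted p = 0.798), and the interaction of -0.79 ± 0.21 was called (adjusted p = 0.0491). Acsl1, the main synthetase of adipocytes, was called in iBAT in Ctrl_CE (0.59 ± 0.10, adjusted p = 1.66e-05) and fell short of 1.5-fold there without the libraries high in skeletal muscle markers (0.42, adjusted p = 0.00375). It rose in iWAT without overlap under each stimulus, from a median of 1988 CPM (1781 to 2480) to 3891, 3343 and 4698 CPM, by 0.95 ± 0.12, 0.70 ± 0.11 and 1.22 ± 0.12 (adjusted p = 1.56e-06, 0.000123 and 6.45e-08).

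Acsl3, a synthetase of the endoplasmic reticulum and lipid droplets, had a called interaction below 0 in both liver and eWAT. In liver its median was 25.0 CPM (16.9 to 31.5) in Ctrl_RT, 52.7 (35.5 to 71.5) in Ctrl_CE, 29.3 (20.8 to 49.9) in MetR_RT and 37.4 (26.4 to 47.4) in MetR_CE. Only Ctrl_CE stood clear of Ctrl_RT. The log2 fold changes were 1.19 ± 0.19 (adjusted p = 2.11e-05), 0.48 ± 0.19 (adjusted p = 0.0837) and 0.67 ± 0.19 (adjusted p = 0.00815), and the interaction was -1.005 ± 0.27 (adjusted p = 0.0483). The liver interactions of Acsl3 and Acsl5 lay at the threshold and were not called with RLE size factors (adjusted p = 0.0508 and 0.0509) or with a replicate block (0.0688 and 0.0693).

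In eWAT the Ctrl_RT libraries stood at 18.1, 21.9, 17.3 and 17.7 CPM for Acsl3. Ctrl_CE ran from 21.8 to 57.8 CPM (median 53.5), MetR_RT from 14.2 to 42.1 (median 22.99) and MetR_CE from 15.01 to 22.6 (median 20.5). The cold libraries on the control diet were high, with the lowest of them inside the Ctrl_RT range, and those on MetR were not. The log2 fold change was 1.26 ± 0.25 in Ctrl_CE (adjusted p = 0.00529) and 0.04 ± 0.24 in MetR_CE (adjusted p = 0.971), and the interaction of -1.62 ± 0.33 was called (adjusted p = 0.0107). With all deposited eWAT libraries it was -1.24 and was not called (adjusted p = 0.0864). In iWAT Acsl3 was called in Ctrl_CE (0.92 ± 0.21), and the interaction of -0.91 ± 0.30 was not (adjusted p = 0.0862). Acsl4, which prefers arachidonic acid, rose in iBAT without overlap in both cold groups, from a median of 29.1 CPM to 52.1 and 49.4 CPM, and was called up in liver in MetR_CE (0.61 ± 0.14).

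**Figure D3:**
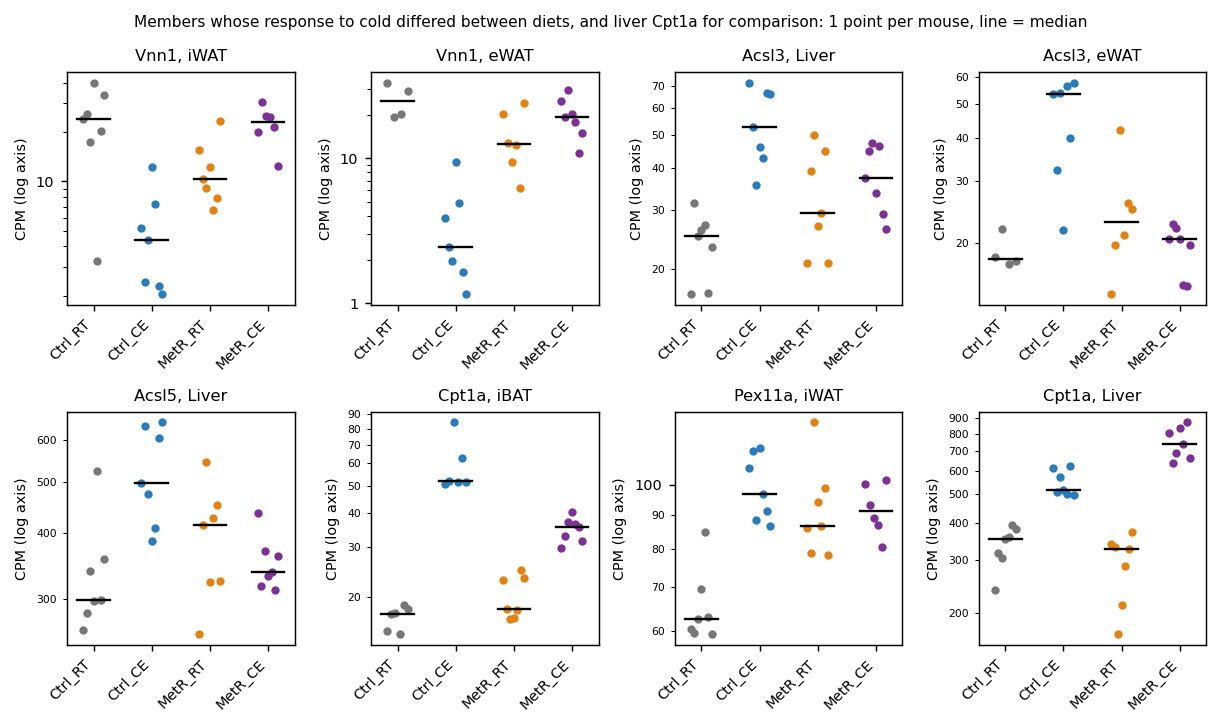
CPM of each library (points, with the median as a line) for the members with a called interaction, in the tissue of the call, and for liver Cpt1a, by group. Acsl3 in eWAT has its highest median in Ctrl_CE (53.5 CPM), with MetR_RT reaching 42.1 CPM, and Vnn1 in iWAT and eWAT is lowest in Ctrl_CE.

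The acyl-CoA thioesterases held the largest changes in liver. Acot3, a peroxisomal enzyme for long chains, was nearly silent in Ctrl_RT livers, where 3 of 7 libraries had 0 counts, the median was 0.0780 CPM and the highest library had 1.25 CPM. It ran from 4.60 to 14.3 CPM (median 6.34) in Ctrl_CE, from 1.41 to 12.4 (median 3.65) in MetR_RT and from 8.47 to 40.2 (median 20.3) in MetR_CE. No library of any stimulus overlapped Ctrl_RT. These were log2 fold changes of 4.89 ± 0.66 (adjusted p = 1.74e-06), 4.15 ± 0.69 (adjusted p = 5.12e-05) and 6.19 ± 0.63 (adjusted p = 8.55e-09). The 27 counts of Ctrl_RT limit their precision. The pooled ratio to Ctrl_RT was 75.7 in MetR_CE, with a 95% counting interval of 51.9 to 115, which covers counting error only.

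Acot4 was called up in every tissue. In liver its median was 18.8 CPM (14.8 to 45.8) in Ctrl_RT, 70.2 (64.8 to 98.6) in Ctrl_CE, 75.4 (43.9 to 92.2) in MetR_RT and 122 (84.7 to 151) in MetR_CE, with log2 fold changes of 1.72 ± 0.20, 1.53 ± 0.20 and 2.33 ± 0.20 (adjusted p = 2.13e-07, 1.86e-06 and 5.4e-10). The highest Ctrl_RT library overlapped MetR_RT alone. In iBAT it rose from a median of 10.9 CPM (7.93 to 16.1) to 27.1 (23.9 to 31.8) in Ctrl_CE and 32.4 (25.4 to 35.8) in MetR_CE, by 1.27 ± 0.17 and 1.44 ± 0.17, and MetR_RT (median 16.96 CPM) was not called.

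In iWAT Acot4 rose under each stimulus, from 11.4 CPM (8.25 to 17.5) to 29.9 (18.8 to 49.8), 20.9 (14.8 to 31.7) and 43.96 (35.6 to 58.6), by 1.37 ± 0.19, 0.89 ± 0.19 and 1.92 ± 0.20 (adjusted p = 8.91e-06, 0.00119 and 1.12e-07). In eWAT the Ctrl_RT libraries stood at 18.1, 13.4, 25.1 and 20.7 CPM, and MetR_CE ran from 30.002 to 56.7 CPM (median 44.03), above all of them, by 1.19 ± 0.25 (adjusted p = 0.0116). The call was lost without Ctrl_RT replicate 1 or replicate 3 (adjusted p = 0.0551 and 0.0544). Ctrl_CE (median 25.6 CPM) and MetR_RT (median 21.4 CPM) overlapped Ctrl_RT there. It was the only member called up in eWAT in MetR_CE.

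Acot2, the mitochondrial long-chain enzyme, rose in liver from a low level, with medians of 2.00 CPM (1.24 to 2.996) in Ctrl_RT, 7.65 (3.82 to 11.4) in Ctrl_CE, 4.26 (1.71 to 7.61) in MetR_RT and 8.68 (6.03 to 11.5) in MetR_CE. The log2 fold changes were 1.89 ± 0.28, 1.19 ± 0.28 and 2.10 ± 0.28 (adjusted p = 5.72e-06, 0.00286 and 6.96e-07), and both cold groups were clear of Ctrl_RT. In iWAT its change in MetR_CE was the largest of the members with a Ctrl_RT median above 1 CPM. It went from a median of 25.8 CPM (17.97 to 29.97) to 72.2 (36.8 to 117), 71.9 (41.5 to 109) and 124 (83.3 to 396). Every library of every stimulus lay above every Ctrl_RT library. There the log2 fold changes were 1.63 ± 0.29, 1.54 ± 0.29 and 2.77 ± 0.31 (adjusted p = 0.000132, 0.000386 and 2.11e-07). In iBAT and eWAT Acot2 was not called.

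Acot1, its cytosolic neighbour, varied among the libraries of a group. In liver it ran from 6.05 to 28.7 CPM in Ctrl_RT, from 12.5 to 24.3 in Ctrl_CE, from 4.39 to 46.7 in MetR_RT and from 4.05 to 28.5 in MetR_CE, and in eWAT from 0.425 to 13.1 CPM in Ctrl_RT alone. It was not called in liver, iBAT (medians of 13.6 to 18.1 CPM) or eWAT. In iWAT it rose from a median of 1.93 CPM (1.22 to 3.35) to 5.599, 6.47 and 7.11 CPM, by 1.65 ± 0.43, 1.60 ± 0.43 and 1.91 ± 0.44 (adjusted p = 0.00405, 0.00697 and 0.000985).

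Acot12, the cytosolic acetyl-CoA hydrolase of liver, rose there in narrow ranges. It ran from 92.6 to 125 CPM (median 109) in Ctrl_RT, from 136 to 183 (median 154) in Ctrl_CE, from 123 to 173 (median 146) in MetR_RT and from 183 to 231 (median 212) in MetR_CE, and only MetR_RT touched the Ctrl_RT range. The rise in MetR_CE of 0.97 ± 0.08 was called (adjusted p = 1.54e-10), and those of 0.55 ± 0.08 and 0.48 ± 0.08 passed the test but not 1.5-fold. In iBAT, at a lower level, it rose from a median of 1.62 CPM (0.675 to 1.98) to 4.85 (3.07 to 7.72) in Ctrl_CE and 3.69 (3.19 to 4.46) in MetR_CE, by 1.75 ± 0.23 and 1.28 ± 0.22. In iWAT the 7 Ctrl_RT libraries held 3 counts in all, and the pooled ratios to them were 11.9 (95% counting interval 3.67 to 61.1), 44.8 (14.97 to 220.3) and 91.2 (30.9 to 445.3), with libraries up to 3.52 CPM. Acot3 in iBAT was called up in MetR_CE from 4 counts in Ctrl_RT to 22 counts, a pooled ratio of 5.83 (1.98 to 23.3), a call that was lost when libraries high in skeletal muscle markers were left out (adjusted p = 0.114). Acot8, the peroxisomal enzyme of broad range, was called in iBAT alone, where it rose from a median of 19.8 CPM (18.3 to 22.6) to 41.02 (34.2 to 50.6) in Ctrl_CE and 34.5 (33.1 to 37.8) in MetR_CE, with log2 fold changes of 1.04 ± 0.07 and 0.82 ± 0.07.

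**Figure D4:**
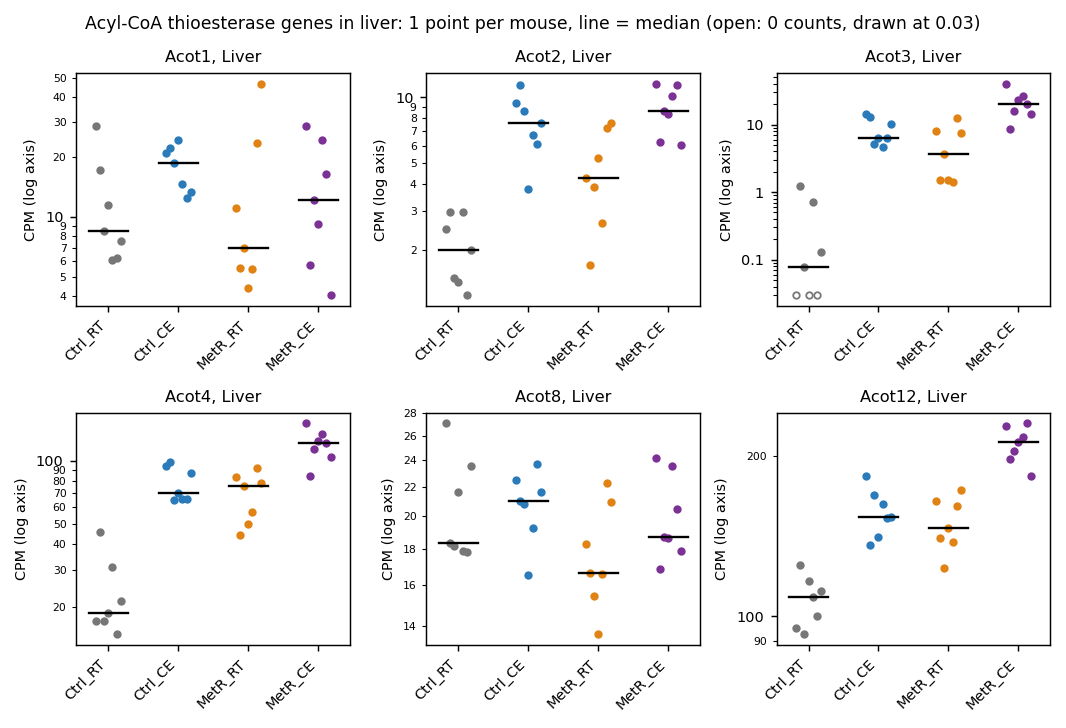
CPM of the 6 thioesterase genes in each liver library (points, with the median as a line) by group, on log axes. Open points are libraries with 0 counts. Acot3 lies at or under 1.25 CPM in Ctrl_RT and between 8.47 and 40.2 CPM in MetR_CE.

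Acot2, Acot1, Acot4 and Acot3 lie in this order within 72.5 kb of chromosome 12 (83987861 to 84060402, GRCm38.p6, plus strand), with 5 annotated protein-coding genes in the stretch. Their upstream sequences are printed to show how these neighbours differ before their start sites. Each is the 250 bases before the RefSeq start, 5′ to 3′ on the plus strand, at chr12:83987611-83987860, chr12:84009252-84009501, chr12:84038129-84038378 and chr12:84051894-84052143. Acot4 alone holds AGGTCA, on the opposite strand 13 bases before its start, and capitals mark it. The genes share part of their 50-base windows with other genes (27.7% for Acot2, 32.7% for Acot1, 4.74% for Acot4 and 19.1% for Acot3), so that reads may be split between neighbours and the levels of Acot1, Acot2 and Acot3 are uncertain.
Acot2: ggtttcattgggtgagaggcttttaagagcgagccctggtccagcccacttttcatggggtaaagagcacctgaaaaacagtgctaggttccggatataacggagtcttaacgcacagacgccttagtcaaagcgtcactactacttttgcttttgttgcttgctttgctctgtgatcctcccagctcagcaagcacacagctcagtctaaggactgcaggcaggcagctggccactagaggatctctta
Acot1: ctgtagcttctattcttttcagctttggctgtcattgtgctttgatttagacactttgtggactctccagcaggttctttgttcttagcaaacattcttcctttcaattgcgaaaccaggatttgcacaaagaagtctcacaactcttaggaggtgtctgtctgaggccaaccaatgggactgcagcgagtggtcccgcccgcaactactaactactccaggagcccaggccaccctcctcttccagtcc
Acot4: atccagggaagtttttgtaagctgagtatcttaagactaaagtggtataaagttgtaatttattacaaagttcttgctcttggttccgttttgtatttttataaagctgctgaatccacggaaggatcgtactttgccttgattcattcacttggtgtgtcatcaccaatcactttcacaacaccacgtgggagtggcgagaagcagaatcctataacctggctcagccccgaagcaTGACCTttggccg
Acot3: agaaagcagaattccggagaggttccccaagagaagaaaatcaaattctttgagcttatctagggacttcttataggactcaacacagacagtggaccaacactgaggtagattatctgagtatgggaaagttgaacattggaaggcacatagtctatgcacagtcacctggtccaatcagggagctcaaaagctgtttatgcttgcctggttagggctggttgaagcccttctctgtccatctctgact

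Fabp1 was high in liver and was not called there. Its liver levels ran from 690 to 2329 CPM over all groups, with log2 fold changes of -0.05, -0.38 and -0.47, none called. The 250 bases before its start (RefSeq, GRCm38.p6, chr6:71199629-71199878, plus strand) hold AGGTCA on the opposite strand at 67 and 9 bases before the start, and the first copy is part of the only match among the members to a direct repeat of AGGNCA with 1 base between the copies (the DR1 arrangement). It is printed because it is the only member with that match.
Fabp1: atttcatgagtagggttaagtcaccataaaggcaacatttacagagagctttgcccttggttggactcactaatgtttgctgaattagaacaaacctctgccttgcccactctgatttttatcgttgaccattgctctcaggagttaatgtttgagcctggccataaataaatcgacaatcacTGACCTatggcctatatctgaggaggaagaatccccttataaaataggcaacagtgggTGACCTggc

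Over the 33 members with a RefSeq window, 7 (21.2%) held AGGTCA on either strand in these 250 bases, namely Acadm, Acadvl, Acot12, Acot4, Cpt1a, Echs1 and Fabp1, beside 14% of 32851 windows of all genes. The direct repeat occurred in 1 member (3.03%), beside 0.338% of all windows. The member shares count genes, which had 36 windows in all, whereas the shares of all genes count windows, so the units differ. Acaa2, Decr1, Acat1, Hsd17b4 and Vnn1 had no window.

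In fat Fabp1 was near 0. Its iBAT calls down in Ctrl_CE and MetR_CE rested on 27 counts in the 6 Ctrl_RT libraries against 1 and 3 counts, and 3 of those 6 libraries had 0 counts. Hepatocyte markers moved with it in iBAT, where 9 of 10 were called down in each of these comparisons and their summed median went from 57.3 CPM to 7.77 and 9.12 CPM. Cyp2e1 alone had a Ctrl_RT median of 56.6 CPM in this sum, and the other 9 had medians of at most 0.363 CPM, although Alb reached 38.2 CPM in its highest library. Their part in the Fabp1 calls was not tested. Without the iBAT libraries high in skeletal muscle markers neither call remained (adjusted p = 0.465 and 0.666). Those libraries include Ctrl_RT replicate 5, which had the highest sum of hepatocyte markers in iBAT (146 CPM) and also the highest sum of skeletal muscle markers (2190 CPM). In eWAT single libraries reached 8.87 CPM of Fabp1 in Ctrl_CE and 5.88 CPM in MetR_CE, in groups where Apob reached 10.1 and 10.7 CPM.

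Vnn1 encodes vanin 1, a pantetheinase of the coenzyme A recycling pathway, and it was called down in Ctrl_CE in all 3 fat depots. In iWAT its median was 24.1 CPM (3.28 to 40.01) in Ctrl_RT, 4.39 (2.04 to 12.2) in Ctrl_CE, 10.3 (6.66 to 23.4) in MetR_RT and 22.95 (12.5 to 30.6) in MetR_CE. Ctrl_CE had the lowest median, while the MetR_CE libraries lay within the Ctrl_RT range. That range reached down to 3.28 CPM through Ctrl_RT replicate 5 alone, with the other Ctrl_RT libraries at 17.4 to 40.01 CPM. Only through that replicate did Ctrl_CE overlap Ctrl_RT, and the lowest MetR_CE library lay below the others. The changes on the log2 scale were -2.20 ± 0.41 (adjusted p = 0.000192), -0.95 ± 0.39 (adjusted p = 0.0791) and -0.08 ± 0.40 (adjusted p = 0.909), and the interaction was 3.07 ± 0.57 (adjusted p = 0.00854).

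In eWAT Vnn1 went from 33.3, 19.3, 20.3 and 29.05 CPM in the Ctrl_RT libraries to 1.15 to 9.46 CPM (median 2.45) in Ctrl_CE. MetR_RT ran from 6.24 to 24.0 CPM (median 12.6) and MetR_CE from 10.8 to 29.5 (median 19.2). Ctrl_CE did not overlap Ctrl_RT, and MetR_CE did. The changes were -2.80 ± 0.42 (adjusted p = 0.000586), -0.84 ± 0.42 (adjusted p = 0.545) and -0.37 ± 0.41 (adjusted p = 0.758), and the interaction was 3.27 ± 0.56 (adjusted p = 0.00546). With all deposited eWAT libraries the interaction was 2.94 and was not called (adjusted p = 0.0733).

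In iBAT, at 1.59 to 3.75 CPM in Ctrl_RT, Vnn1 fell under each stimulus, to medians of 0.502, 0.913 and 0.674 CPM, by 2.41 ± 0.35, 1.13 ± 0.31 and 1.84 ± 0.32 (adjusted p = 2.44e-06, 0.0221 and 3.78e-05), and the fall in MetR_RT was the 1 call of that comparison. It was lost when the 3 libraries with a differing tag were left out (-1.04, adjusted p = 0.055). In liver it rose, from a median of 36.4 CPM (25.6 to 56.0) in Ctrl_RT to 66.2 (50.9 to 114) in MetR_CE, by 0.91 ± 0.25 (adjusted p = 0.00524), with medians of 47.8 and 34.6 CPM in Ctrl_CE and MetR_RT and no call there.

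Whether the response of a member differed between tissues was tested in a fit over all 4 tissues, each set against iWAT. That fit treated the libraries of different tissues as independent, although the same mice gave them. In Ctrl_CE the response in iBAT was lower than in iWAT for 18 members and higher for 3 (background 8.15% of all genes different, 4.42% lower), that in eWAT was lower for 17 and higher for 0 (background 4.18%, 1.47% lower), or for 8 with all eWAT libraries, and that in liver was lower for 9 and higher for 3 (background 11.8%, 3.71% lower). In MetR_RT the members with a lower response than in iWAT were 21 in iBAT (background 3.66%, 2.3% lower), 22 in eWAT (background 3.52%, 1.71% lower) and 19 in liver (background 7.22%, 3.11% lower), and 1 was higher, in liver. The members with a higher response than iWAT in Ctrl_CE were Cpt1a, Acot3 and Vnn1 in liver and Cpt1a, Bdh1 and Acot8 in iBAT, and in MetR_RT the one in liver was Acot3.

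**Figure D5:**
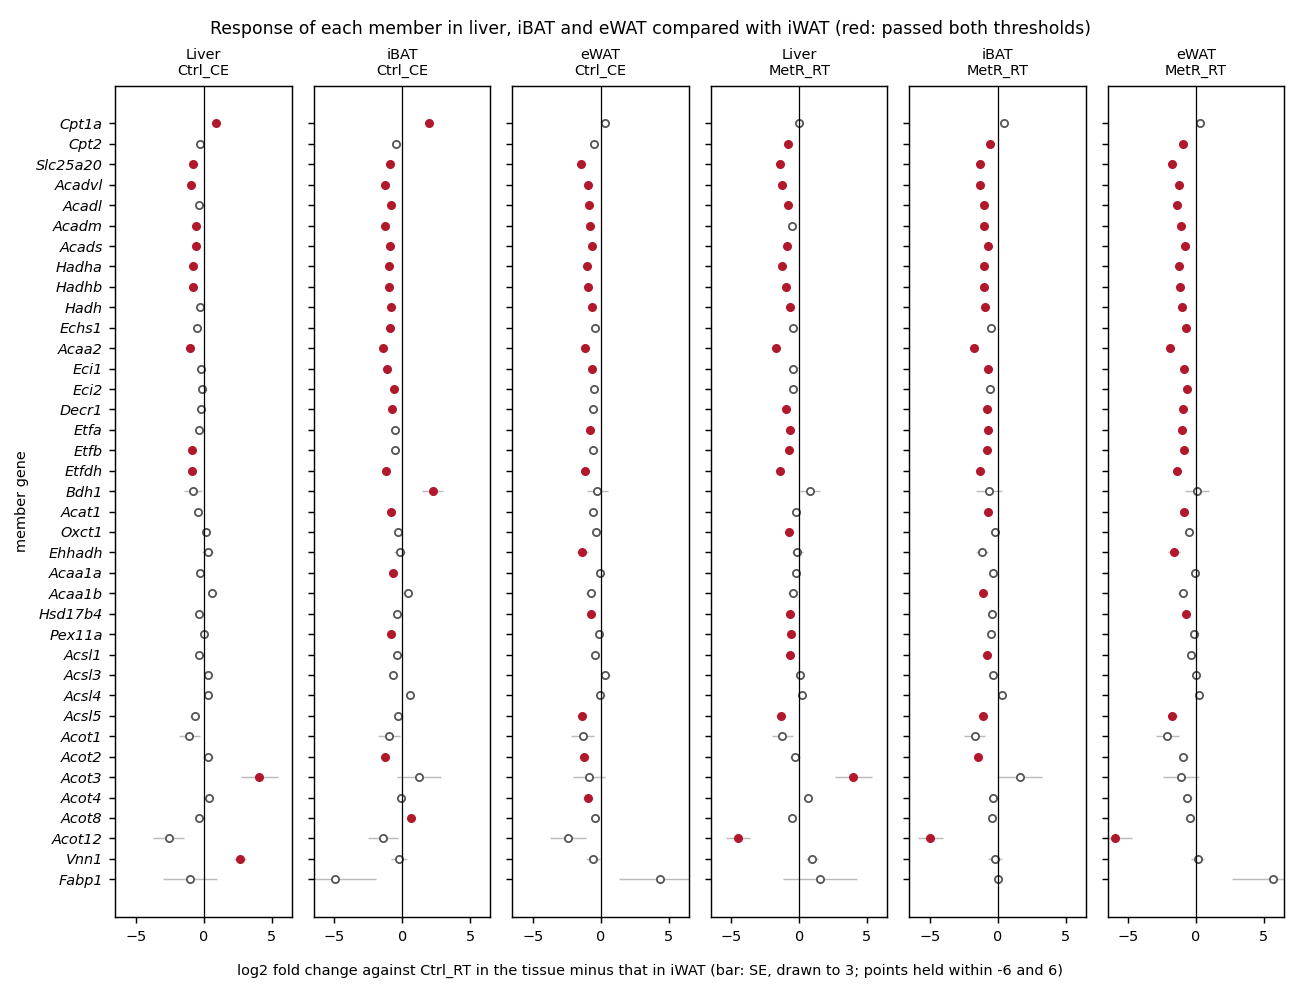
Difference of the log2 fold change against Ctrl_RT between a tissue and iWAT (tissue minus iWAT) for each member, with its SE as a bar and called differences in red. Most mitochondrial members lie below 0 in every panel, and Cpt1a lies above 0 in liver and iBAT in Ctrl_CE.

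For Hadha the difference to iWAT was called in all 6 tests. It was -0.79 ± 0.20, -0.97 ± 0.21 and -1.002 ± 0.22 in liver, iBAT and eWAT in Ctrl_CE, and -1.29 ± 0.20, -1.01 ± 0.21 and -1.24 ± 0.22 in MetR_RT. For Acadm it was called in 5 of 6, the exception being liver in MetR_RT (-0.52 ± 0.19, adjusted p = 0.052). Cpt1a differed the other way in Ctrl_CE, by 0.91 ± 0.21 in liver (adjusted p = 0.000624) and 1.97 ± 0.23 in iBAT (adjusted p = 1.28e-10), and was not called different in eWAT or in MetR_RT.

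The wider pathway was represented by 62 other genes, of which 61 or 62 were tested per tissue. In iWAT 18 rose and 4 fell in Ctrl_CE, 17 rose and 2 fell in MetR_RT, and 26 rose and 3 fell in MetR_CE (backgrounds 15.9%, 11.6% and 22.4% of all genes), led by Fabp3, a fatty acid binding protein of heart, muscle and brown fat, at 4.22 ± 0.81, 4.22 ± 0.81 and 5.34 ± 0.86. In liver 16 rose and 2 fell, 6 rose and 5 fell, and 12 rose and 4 fell (backgrounds 11.9%, 6.91% and 13.5%), led by the omega-hydroxylase Cyp4a14 at 2.92 ± 0.77, 2.65 ± 0.76 and 3.73 ± 0.79, with the peroxisomal transporter Abcd2 next. The liver genes of MetR_RT also held the coenzyme A diphosphatase Nudt7, which fell by 1.07 ± 0.15.

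In iBAT the calls went both ways, with 11 up and 10 down in Ctrl_CE, 1 up and 3 down in MetR_RT, and 10 up and 10 down in MetR_CE (backgrounds 14.7%, 2.5% and 14.7%). The coactivator Ppargc1a rose by 2.44 ± 0.21 and 2.37 ± 0.21 in the cold groups, Acot5 by 4.45 ± 0.43 and 3.77 ± 0.43, and the medium-chain synthetase Acsm3 fell by 2.86 ± 0.22 and 1.44 ± 0.20. In eWAT 3, 0 and 2 genes were called, all down (backgrounds 2.42%, 0.115% and 1.3%).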

How the data were processed

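Poly(A) RNA of 4 tissues was sequenced in paired reads. The authors deposited 3 tables of raw counts per gene, not normalized. The submitters' processing notes name STAR 2.7.9a, Salmon 1.9.0, featureCounts 2.0.3, DESeq2 1.46.0, MultiQC 1.19 and mm10. The tables' gene IDs were matched to a reference table of symbols without their version (51948 of 56884 matched, and all 38 members).

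The deposited counts were tested within each tissue with edgeR 4.0.16 (R 4.3.3, limma 3.58.1), using TMM scaling, genes with at least 10 counts in total, the quasi-likelihood test and Benjamini-Hochberg adjustment over all genes tested. A gene was called at an adjusted p under 0.05 and a change of at least 1.5-fold. Log2 fold changes are given with their standard errors. CPM values used the same scaling, so levels are comparable within a tissue. A fit over all 16 groups tested whether a response differed from that in iWAT. The tests were tried on simulated data with 200 changed genes. The simulated libraries were independent, so that trial did not cover mice shared between tissues.

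Groups followed the sample titles, and replicates were separate mice. The study left out 5 libraries without naming them in the labels. They were identified as the subset (of 8 in iBAT and 246 in eWAT) whose omission came nearest to the study's mean counts, and were left out here too: Ctrl_CE replicate 5 of iBAT, Ctrl_RT replicates 2, 4 and 5 and MetR_RT replicate 7 of eWAT. Total counts ran from 6987895 to 33444374 in liver, 12672686 to 31232349 in iBAT, 16607493 to 33141066 in iWAT and 22625093 to 33372110 in eWAT. Pooled ratios of low counts have 95% intervals that cover counting error only.

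Values in every group were given for the 6 called members with the largest change in each tissue and a mean of at least 1 CPM, for every member with a called interaction, and for Cpt1a, Acadm, Hadha, Bdh1, Oxct1, Ehhadh, Acot1 and Vnn1. The other 62 genes of the pathway were counted, some of those with the largest changes were named, and 1 gene is not reported here. The members and lists were chosen with earlier results of these data known. Upstream sequences came from RefSeq (GRCm38.p6) and gene positions from GENCODE vM21 (GRCm38). Alternatives were RLE size factors, DESeq2 1.42.0, no filter on low counts, calls on the adjusted p alone, a replicate block, all libraries, iBAT groups by treatment tag, and leaving out eWAT Ctrl_RT libraries in turn. Leaving out the 3 iBAT libraries of differing tag, or those high in markers of another tissue, was added after seeing the data.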

Additional observations from a re-analysis of the deposited data

Results flagged for a closer look

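Among 192 groups of named members, 8 held a library far from the rest of its group, and chance alone gives about 1 in 20 groups. In liver, Oxct1 in Ctrl_CE replicate 2 stood at 10.2 CPM (others 3.25 to 4.60) and Ehhadh in MetR_CE replicate 1 at 650.0 CPM (others 254.8 to 356). In iBAT Ctrl_RT, Acot12 and Acot1 in replicate 3 stood at 0.675 CPM (others 1.53 to 1.98) and 5.40 CPM (others 12.7 to 18.4), and Oxct1 in replicate 1 at 268.6 CPM (others 198 to 219). Skeletal muscle markers summed to 1211 CPM in that replicate 3, and their part in its values was not tested. In iWAT, Vnn1 in Ctrl_RT replicate 5 stood at 3.28 CPM (others 17.4 to 40.01), and in Ctrl_CE replicate 7 Slc25a20 stood at 138 CPM (others 271.8 to 421) and Hadha at 592 CPM (others 1032 to 1560).

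The diet x temperature interaction was called 7 times, over 5 members. On the log2 scale it was -1.005 for Acsl3 and -0.79 for Acsl5 in liver, -1.01 for Cpt1a in iBAT, 3.07 for Vnn1 and -0.61 for Pex11a in iWAT, and -1.62 for Acsl3 and 3.27 for Vnn1 in eWAT.

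For Cpt1a, Acadm, Hadha, Bdh1, Oxct1, Ehhadh, Acot1 and Vnn1, the log2 responses that differed from those in iWAT by the fit over all tissues were, in Ctrl_CE, Cpt1a (0.91), Acadm (-0.60), Hadha (-0.79) and Vnn1 (2.67) in liver, Cpt1a (1.97), Acadm (-1.26), Hadha (-0.97) and Bdh1 (2.24) in iBAT, and Acadm (-0.79), Hadha (-1.002) and Ehhadh (-1.34) in eWAT. In MetR_RT they were Hadha (-1.29) and Oxct1 (-0.76) in liver, Acadm (-1.02) and Hadha (-1.01) in iBAT, and Acadm (-1.09), Hadha (-1.24) and Ehhadh (-1.63) in eWAT.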

How the results depend on the processing

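In iWAT the counts of called members against Ctrl_RT (22, 22 and 25) did not move with RLE size factors, DESeq2, no filter on low counts or the replicate block. Without libraries high in skeletal muscle markers, a choice made after seeing the data, Ctrl_CE gave 20. Calls on the adjusted p alone gave, in Ctrl_CE, MetR_RT and MetR_CE, 21, 11 and 25 members in liver (backgrounds 28.8%, 18.8% and 30.3%) and 25, 8 and 23 in iBAT (33.2%, 6.8% and 33.4%). The count of interactions moved in every tissue. In liver it was 0 with RLE size factors, 5 with DESeq2 and 0 with the replicate block. For iBAT, DESeq2 gave 2 and groups by treatment tag gave 0, and for iWAT RLE size factors gave 5 and DESeq2 gave 10. With all libraries eWAT gave 0 calls in MetR_RT, 0 interactions and 8 members that differed from iWAT in Ctrl_CE. Leaving out each eWAT Ctrl_RT library in turn gave 2 to 4 calls in Ctrl_CE, 1 in MetR_RT, 2 to 5 in MetR_CE and 2 interactions, and MetR_CE gave 2 without replicate 1. No called change of a member reversed under the alternatives run, whereas the eWAT medians of all genes, which lie near 0, went above 0 without Ctrl_RT replicate 6 and, in Ctrl_CE, with RLE size factors (0.0039). The causes were not tested. Fabp1 in fat and Acot12 in iWAT were near 0 counts, where depth limits any difference.

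Replicate numbers name different mice in different groups of a tissue, so they do not pair the samples. The median correlation of the deviations of same-numbered libraries was highest in eWAT (0.084) and iWAT (0.052), and that of iBAT and liver was -0.0025 and -0.0054. With the replicate block iBAT gave 10 calls in Ctrl_CE and 10 in MetR_CE, and liver gave 9 in MetR_CE. With the mouse as a block in the fit over all tissues, 16 to 22 members differed from iWAT in iBAT and eWAT.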
